A study of Mus musculus with 16 samples.

Results

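The endoplasmic reticulum (ER) chaperones and the machinery of the unfolded protein response were followed in cultured adipose progenitors as a set of 33 genes, listed by symbol. All 33 were found among the 27179 entries of the deposited table and all 33 passed the filter of a normalized count of at least 10 in at least 4 libraries, which 14005 entries passed. The cells were PDGFRb+ stromal cells sorted from the inguinal white fat of C57BL/6 mice, divided into DPP4_pos and DPP4_neg adipose progenitors (APCs) and cultured with 10% serum. There were 4 groups of 4 libraries: DPP4_pos APCs given isoproterenol, DPP4_pos APCs given vehicle, DPP4_neg APCs given isoproterenol and DPP4_neg APCs given vehicle. Isoproterenol, an agonist of beta-adrenergic receptors, was given for 4 h at a labelled dose of 10 mM, and PBS was the vehicle. The labels give no genetic change in any group, and they do not say whether the 4 libraries of a group came from separate mice or cultures, so each p-value reflects library-to-library spread alone, possibly technical. All cells had been taken out of the tissue by flow cytometry and grown before treatment.

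Secretory and membrane proteins fold in the ER, where the HSP70 chaperone BiP, lectin chaperones and disulfide isomerases assist them. When unfolded proteins accumulate, 3 membrane sensors respond: IRE1, encoded by Ern1, cuts the Xbp1 mRNA for splicing, PERK, encoded by Eif2ak3, slows translation and favours translation of ATF4, and ATF6 is released as a transcription factor. Their targets include chaperones, foldases and the ER-associated degradation (ERAD) machinery that returns misfolded proteins to the cytosol. Progenitors of adipose stroma secrete collagens and other matrix proteins, which pass through this machinery. Counts per gene do not show splicing of Xbp1, cleavage of ATF6 or phosphorylation of PERK.

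Reads in genes, recovered from the normalized counts, ranged from 9823799 to 28627223 per library. Except for Derl3, which had 6 to 73 reads per library, each member had at least 352 reads in every library. Dpp4 followed the sort, at 2104 to 2326 normalized counts in DPP4_pos isoproterenol and 2853 to 3227 in DPP4_pos vehicle libraries, against 7.89 to 13.1 in DPP4_neg isoproterenol and 15.3 to 24.6 in DPP4_neg vehicle libraries. Pdgfrb, the other sort marker, had 1987 to 2347 in DPP4_pos isoproterenol and 7142 to 7881 in DPP4_pos vehicle libraries, and 8609 to 9557 in DPP4_neg isoproterenol and 11194 to 11527 in DPP4_neg vehicle libraries, so it was lower with isoproterenol in both populations without overlap. Normalized counts summed to 18370000 to 18620000 in DPP4_pos isoproterenol and 15180000 to 15410000 in DPP4_pos vehicle libraries, and to 16080000 to 16240000 in DPP4_neg isoproterenol and 15990000 to 16040000 in DPP4_neg vehicle libraries. Results whose direction differed with another scaling are named below, and the part of the unequal totals in them was not tested. Whether fewer cells of a kind or less RNA per cell lay behind a lower level cannot be told apart in these bulk libraries.

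Factors of the unfolded protein response act through ER stress elements in promoters. The classical element, ERSE, has CCAAT and CCACG separated by 9 bases, ERSE-II has ATTGG and CCACG separated by 1 base, and the core of the UPR element is TGACGTG. The cAMP response element, TGACGTCA, was searched as well, because isoproterenol acts through cAMP. Both strands were searched in RefSeq promoter windows (GRCm38.p6) that run from 250 bases before to 50 bases after the transcript start. Of the 33 members, 27 had at least 1 window, and Atf6, Derl1, Hyou1, Manf, Sec61a1 and Sil1 did not. The sequences shown are the 250 bases before the start, on the gene's strand, of 6 members whose responses differ: Hspa5 (chr2:34771840-34772089), Hsp90b1 (chr10:86705445-86705694, minus strand), Creld2 (chr15:88819396-88819645), Syvn1 (chr19:6046326-6046575), Dnajc3 (chr14:118937682-118937931) and Herpud1 (chr8:94386179-94386428). Capitals mark the ERSE (both parts, on either strand), the ERSE-II in Herpud1 and the UPR element core in Hspa5.
Hspa5: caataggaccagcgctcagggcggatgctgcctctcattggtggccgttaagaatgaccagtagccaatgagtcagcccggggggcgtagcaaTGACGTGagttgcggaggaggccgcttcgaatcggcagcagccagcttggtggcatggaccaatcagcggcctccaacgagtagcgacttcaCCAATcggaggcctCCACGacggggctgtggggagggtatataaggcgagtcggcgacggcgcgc
Hsp90b1: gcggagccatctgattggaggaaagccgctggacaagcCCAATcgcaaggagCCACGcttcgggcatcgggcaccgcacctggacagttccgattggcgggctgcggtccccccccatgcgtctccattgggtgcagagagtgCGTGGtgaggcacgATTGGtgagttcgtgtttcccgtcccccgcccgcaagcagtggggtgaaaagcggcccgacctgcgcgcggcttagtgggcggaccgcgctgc
Creld2: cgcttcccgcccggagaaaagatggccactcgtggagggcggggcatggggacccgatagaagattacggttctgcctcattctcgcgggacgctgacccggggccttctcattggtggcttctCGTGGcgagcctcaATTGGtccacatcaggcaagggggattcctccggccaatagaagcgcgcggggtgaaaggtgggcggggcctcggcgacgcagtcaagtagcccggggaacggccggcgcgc
Syvn1: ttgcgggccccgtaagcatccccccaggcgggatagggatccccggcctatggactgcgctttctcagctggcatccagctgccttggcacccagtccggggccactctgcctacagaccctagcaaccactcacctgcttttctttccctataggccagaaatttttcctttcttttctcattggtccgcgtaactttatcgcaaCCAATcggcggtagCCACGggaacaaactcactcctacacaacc
Dnajc3: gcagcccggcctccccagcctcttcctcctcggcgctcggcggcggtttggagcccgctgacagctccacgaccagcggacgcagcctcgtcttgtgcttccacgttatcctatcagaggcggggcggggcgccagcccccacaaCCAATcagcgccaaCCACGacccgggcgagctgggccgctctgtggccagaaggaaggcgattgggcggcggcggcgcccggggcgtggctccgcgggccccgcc
Herpud1: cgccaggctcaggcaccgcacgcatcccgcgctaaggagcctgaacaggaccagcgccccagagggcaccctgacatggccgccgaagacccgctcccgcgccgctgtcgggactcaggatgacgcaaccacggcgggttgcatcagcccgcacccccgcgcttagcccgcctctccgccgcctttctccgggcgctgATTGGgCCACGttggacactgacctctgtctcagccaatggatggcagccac

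An ERSE was present in the windows of 9 members (Hspa5, Hsp90b1, Calr, Canx, Pdia6, Dnajc3, Syvn1, Creld2 and Derl3), where 0.119% of all 32851 windows held one. ERSE-II was present in Herpud1 and Dnajb11, and in 0.0365% of all windows. The core of the UPR element was found in Hspa5 alone among the members, and in 2.01% of all windows. No member's window held the full cAMP response element, which 1.79% of all windows did. The half-site CCACG, which every ERSE contains, was in the windows of 23 members and in 32.8% of all windows. With the deposited scaling, isoproterenol was followed by a rise in both populations for 7 of the 9 members with an ERSE. The 18 members with a window and no ERSE include the ERSE-II holders Dnajb11 and Herpud1, and 14 of them rose in both. That is 77.8% in each case, where 25.9% of all genes tested rose in both. Of the members counted, Pdia4, Pdia6, P4hb and Eif2ak3 turned negative in DPP4_pos APCs under quantile or total-count scaling. Xbp1 and Sec61b lost the call there under 1 of these scalings. Of all those named, only Pdia6 holds an ERSE, so the equal shares depend on the scaling. Dnajc3 and Derl3 were the ERSE members without such a rise. These matches describe letters in the windows and do not show binding.

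**Figure D1:**
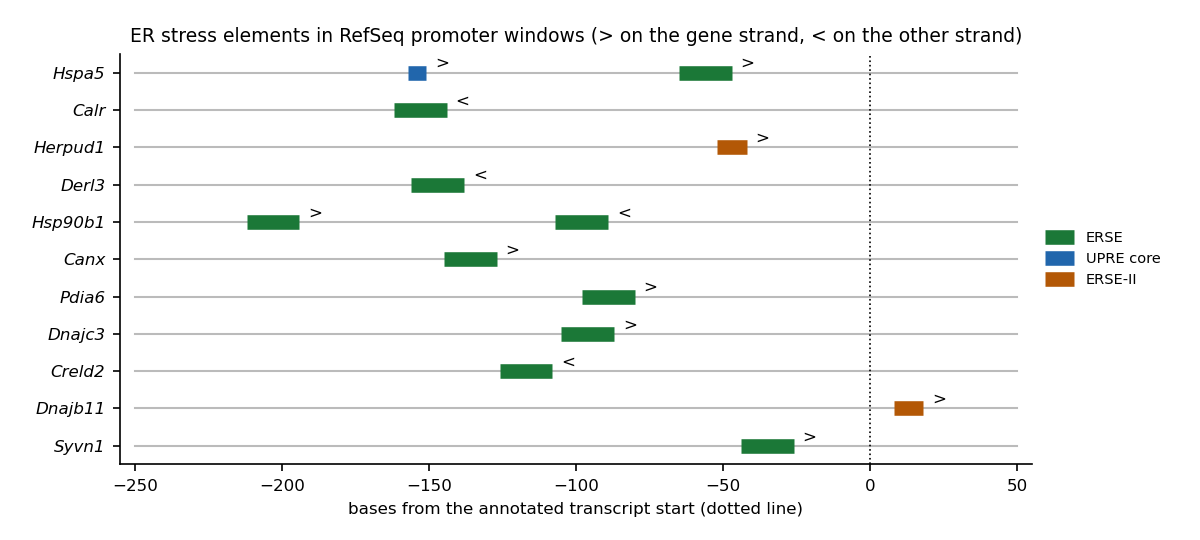
Positions of the ER stress elements in the promoter windows of the 11 members that hold one, with the distance from the annotated transcript start in bases on the horizontal axis. Hsp90b1 holds 2 ERSEs, and the ERSE-II of Dnajb11 lies after the start. Only the windows, from 250 bases before to 50 bases after the start, were searched, which limits where an element could be found.

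Together the 33 members took a larger share of the libraries after isoproterenol in both populations. Their summed counts made up 1.262 to 1.318% of the total in DPP4_pos isoproterenol libraries, against 0.9596 to 0.9814% in DPP4_pos vehicle libraries. In DPP4_neg APCs they made up 1.506 to 1.56% in isoproterenol libraries, against 1.07 to 1.112% in vehicle libraries. These shares do not depend on the scaling between libraries, as each divides by its own library total, which amounts to total-count scaling. The ranges of isoproterenol and vehicle libraries did not overlap in either population. Under each treatment the share was lower in DPP4_pos than in DPP4_neg libraries, again without overlap. With the deposited scaling, the summed counts under isoproterenol did overlap, at 234900 to 245300 in DPP4_pos and 243000 to 253100 in DPP4_neg libraries. Under vehicle these sums did not overlap, at 145900 to 150100 in DPP4_pos and 171200 to 178000 in DPP4_neg libraries. The median coefficient of variation of a member among libraries was 2.76% in DPP4_pos isoproterenol and 2.04% in DPP4_pos vehicle libraries, and 4.59% in DPP4_neg isoproterenol and 2.83% in DPP4_neg vehicle libraries. Per kilobase of merged exon (GENCODE annotation), Hsp90b1, Pdia3, Calr, P4hb and Hspa5 were the 5 highest members in every group, and the order among them changed with treatment. Hspa5 was the first by mean level in DPP4_pos isoproterenol libraries (10090 normalized counts per kilobase) and the fifth in DPP4_pos vehicle libraries (3387), the second in DPP4_neg isoproterenol (9342) and the fifth in DPP4_neg vehicle libraries (4728). The sensors stood near the other end, with 201 normalized counts per kilobase for Ern1, 145.1 for Atf6 and 136 for Eif2ak3 in DPP4_pos isoproterenol libraries, and Derl3 was the lowest member in every group. The 14 members whose libraries are not listed one by one ranged from 550.0 normalized counts for Sil1 to 25868 for Pdia3.

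**Figure D2:**
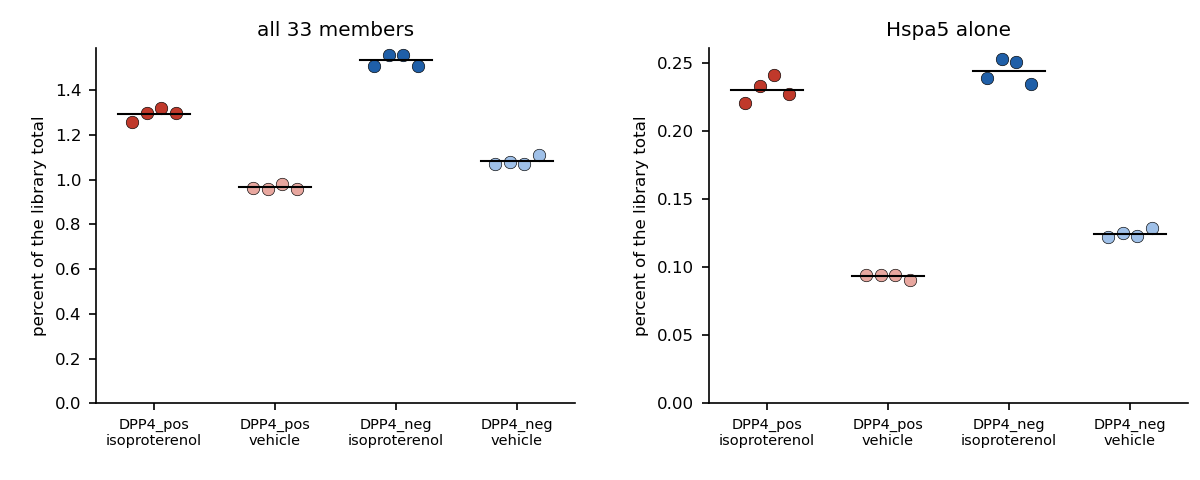
Percent of each library's summed counts taken by the 33 members (left) and by Hspa5 alone (right); points are libraries, lines are group means, 4 libraries in each group. Isoproterenol libraries lie above the vehicle libraries of the same population in both panels.

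Most members rose after isoproterenol. In DPP4_pos APCs, 26 of 33 members rose and 4 fell at an adjusted p under 0.05 (limma on log2 normalized counts, Benjamini-Hochberg over all genes tested), beside 39.4% of all genes tested that rose and 43.3% that fell. In DPP4_neg APCs, 25 members rose and 6 fell, beside 32.1% and 33.6% of all genes. Values after ± with an adjusted p are standard errors of this fit. The same 25 members rose in both populations, beside 25.9% of all genes tested. They make up all of those that rose in DPP4_neg and, with Ero1l as the exception, all of those that rose in DPP4_pos APCs. Derl2, Fkbp14 and Sil1 fell in both, beside 26.4% of all genes. The median log2 difference of the members was 0.57 in DPP4_pos and 0.37 in DPP4_neg APCs, where the medians of all genes were -0.05 and -0.02. The order of the members' medians turned with quantile (0.13 and 0.30) and total-count scaling (0.29 and 0.36). The medians of all genes were then -0.03 and 0.02 with quantile and -0.32 and -0.03 with total-count scaling. Relative to all genes, the members' median with total-count scaling was thus still the higher in DPP4_pos APCs.

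At a change of at least 1.5-fold as well, 16 members rose and 1 fell in DPP4_pos APCs, beside 21.3% and 29.2% of all genes. In DPP4_neg APCs 8 rose and 1 fell by that rule, beside 10.8% and 16.3% of all genes. All 25 rises and all 6 falls in DPP4_neg APCs were also called with TMM, quantile and total-count scaling. In DPP4_pos APCs 19 of the 26 rises and all 4 falls were. There the split between higher and lower members was 20 to 8 with quantile and 21 to 7 with total-count scaling. Of all 14005 genes tested, 5358 rose and 5767 fell in DPP4_pos APCs with quantile and 3865 and 7836 with total-count scaling. The members' median there was 0.13 with quantile scaling, where that of all genes was -0.03, and 0.29 with total-count scaling, where that of all genes was -0.32.

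**Figure D3:**
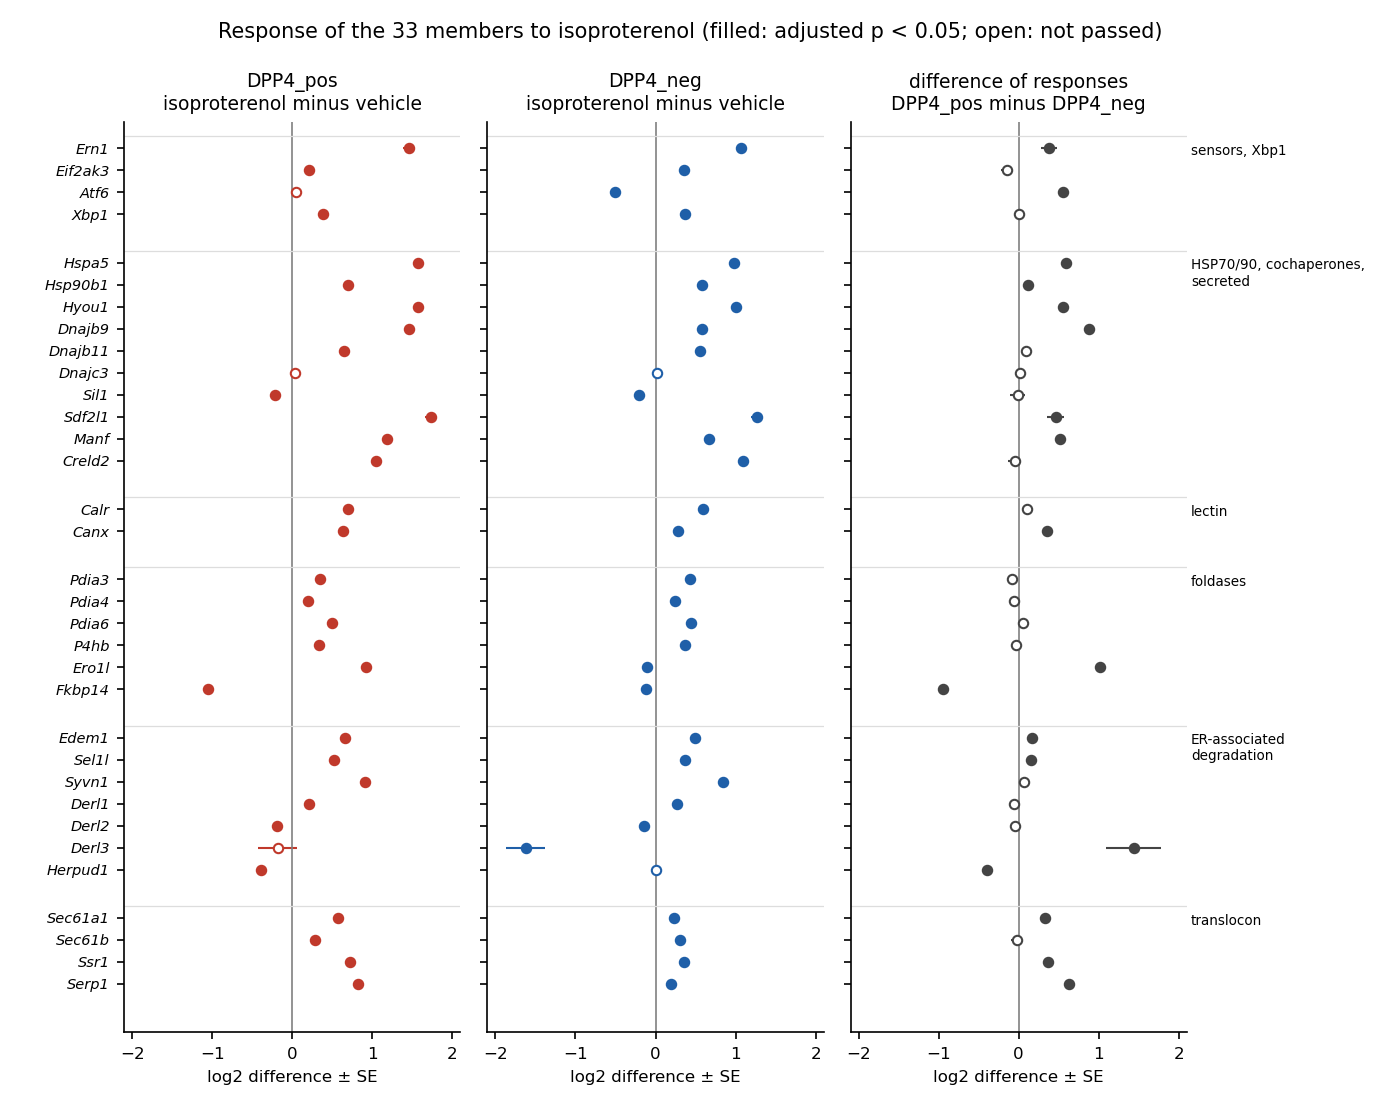
Log2 difference of isoproterenol minus vehicle in DPP4_pos (left) and DPP4_neg APCs (middle), and the difference of the 2 responses (right), for the 33 members grouped by role; bars are standard errors and open points did not pass an adjusted p of 0.05. Most points lie right of 0 in both populations, Sdf2l1, Hspa5 and Hyou1 farthest in DPP4_pos APCs and Sdf2l1, Creld2 and Ern1 in DPP4_neg APCs; under quantile or total-count scaling the filled points of Pdia4, Pdia6, P4hb, Eif2ak3 and Derl1 and the open ones of Dnajc3 and Atf6 turn negative in DPP4_pos APCs, Dnajc3 does in DPP4_neg APCs, and in the right panel the filled points of Hsp90b1, Canx, Edem1, Sel1l and Sec61a1 and the open ones of Calr, Pdia6, Dnajb11, Dnajc3, Xbp1 and Syvn1 do.

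Under vehicle most members were lower in DPP4_pos than in DPP4_neg APCs. Of the 33, 4 were higher (Ern1, Eif2ak3, Fkbp14 and Sil1) and 25 were lower in DPP4_pos APCs, beside 31.6% and 35.0% of all genes. At 1.5-fold or more, 0 were higher and 6 were lower, beside 14.8% and 12.6% of all genes. The members' median was -0.23 and that of all genes -0.01. All 4 higher and 22 of the 25 lower calls held under every scaling tried, and those of Calr, P4hb and Syvn1 did not. The median under vehicle was -0.17 with quantile scaling (all genes -0.03) and -0.17 with total-count scaling (all genes 0.05). Under isoproterenol 9 members were higher and 16 lower, beside 37.4% and 37.0% of all genes, with a median of -0.08 against -0.00 for all genes. That median was -0.32 with quantile scaling (all genes -0.03) and -0.28 with total-count scaling (all genes -0.20). By the 1.5-fold rule 2 were higher (Dnajb9 and Ern1) and 2 lower (Fkbp14 and Herpud1), beside 16.7% and 19.2% of all genes. The higher and lower split under isoproterenol was 4 to 26 with quantile and 4 to 24 with total-count scaling. Of all 14005 genes tested, 4733 were higher and 5419 lower with quantile and 3665 and 7004 with total-count scaling. Dnajb9, Atf6, Ern1 and Sil1 were the 4 members called higher under each of the scalings tried.

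**Figure D4:**
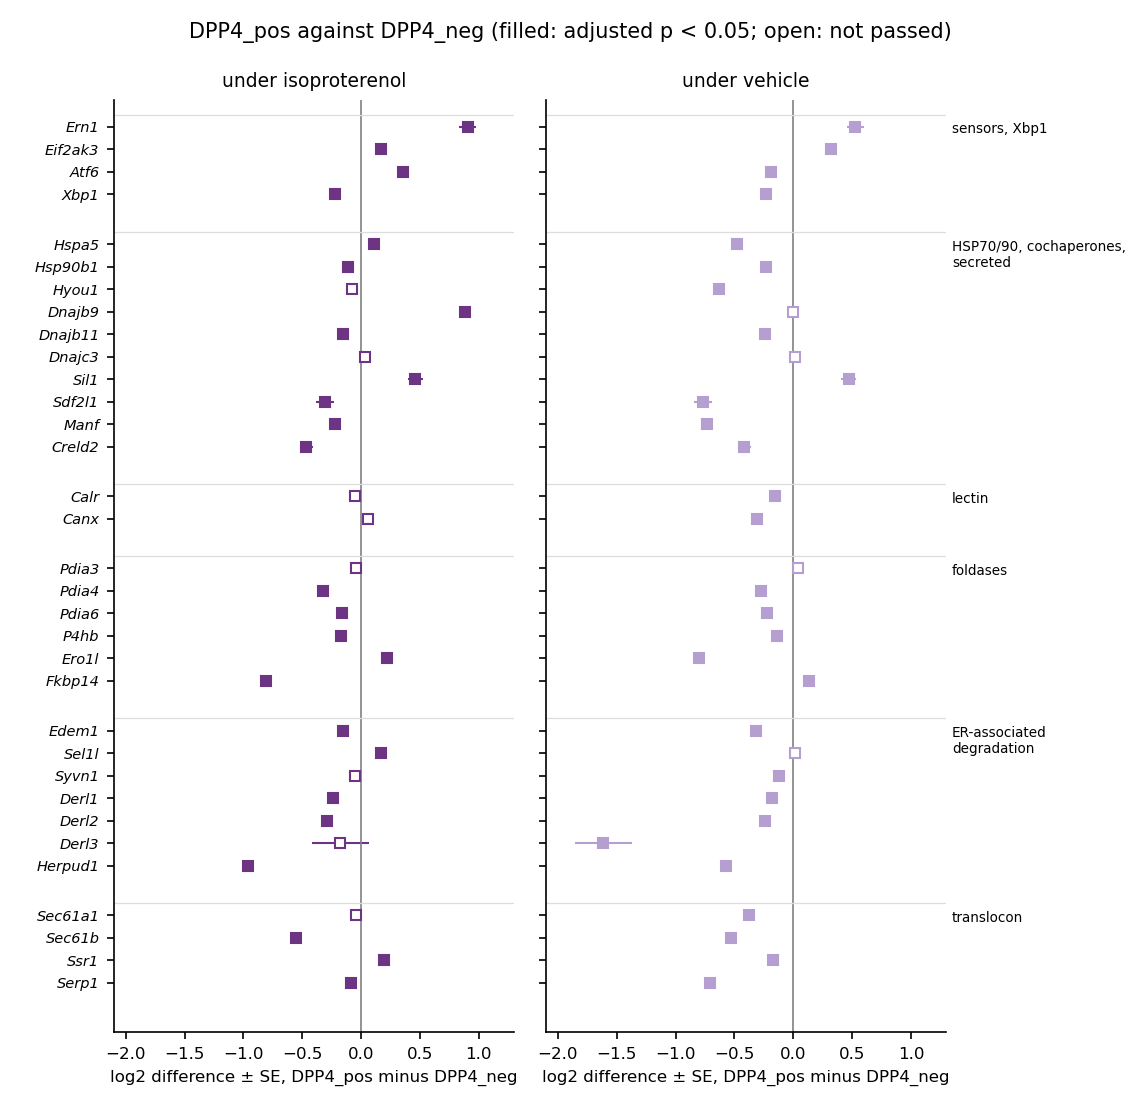
Log2 difference of DPP4_pos minus DPP4_neg APCs under isoproterenol (left) and under vehicle (right) for the 33 members; bars are standard errors and open points did not pass an adjusted p of 0.05. Under vehicle 25 members lie left of 0 and passed; under isoproterenol 16 do, and of those to the right Hspa5, Eif2ak3, Sel1l and Ssr1 (filled) and Canx and Dnajc3 (open) turn negative under quantile or total-count scaling.

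The response itself differed between populations for 18 members. The response was higher in DPP4_pos APCs for 16 members and lower for 2, beside 31.6% and 31.0% of all genes. With a difference of at least 1.5-fold these were 5 and 1, beside 14.4% and 17.7% of all genes. Under all scalings tried, 8 of the 16 (Hspa5, Hyou1, Manf, Dnajb9, Atf6, Ero1l, Serp1 and Derl3) and both of the 2 (Herpud1 and Fkbp14) were called the same way. The split was 13 to 5 with TMM, 9 to 17 with quantile and 8 to 18 with total-count scaling. The balance of the 2 directions over the set thus turned with the scaling. Of all 14005 genes tested, 3998 were higher and 4772 lower with TMM, and 3927 and 4457 with quantile scaling. With total-count scaling 2557 were higher and 6828 lower, so all genes leaned to the lower side there too. The median of the members was 0.10, and -0.17 with quantile and -0.16 with total-count scaling, where that of all genes was -0.02, -0.03 and -0.28.

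Of the 3 sensors and Xbp1, 3 rose in DPP4_pos APCs, and 3 rose and 1 fell in DPP4_neg APCs, and Ern1 rose most. In DPP4_pos APCs Ern1 had 1756, 1505, 1616 and 1693 normalized counts with isoproterenol, against 602.3, 587.1, 573.0 and 633.6 with vehicle. In DPP4_neg APCs it had 908.6, 727.6, 932.2 and 951.6 with isoproterenol, against 433.1, 431.3, 426.7 and 373.5 with vehicle. Isoproterenol libraries were above the vehicle libraries in each population, and DPP4_pos libraries were above DPP4_neg libraries under each treatment, with no overlap. The log2 difference was 1.45 ± 0.072 (adjusted p = 2.87e-14) in DPP4_pos and 1.07 ± 0.072 (adjusted p = 1.44e-11) in DPP4_neg APCs, and the difference of the responses, 0.38 ± 0.10 (adjusted p = 0.00267), was no longer called under quantile or total-count scaling.

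Eif2ak3, which encodes PERK, rose by smaller amounts. It had 803.3, 834.5, 878.3 and 762.9 normalized counts in DPP4_pos isoproterenol and 723.3, 674.8, 706.7 and 741.8 in DPP4_pos vehicle libraries. In DPP4_neg isoproterenol libraries it had 724.0, 676.2, 782.4 and 732.4, against 561.2, 588.1, 585.8 and 545.4 in DPP4_neg vehicle libraries. The isoproterenol libraries were the higher ones in both populations, by a narrow margin in DPP4_pos APCs. It rose by 0.20 ± 0.052 (adjusted p = 0.00118) in DPP4_pos APCs, where total-count scaling turned the sign, and by 0.35 ± 0.052 (adjusted p = 3.8e-06) in DPP4_neg APCs. Exons of other genes overlap 8.05% of the exon bases of Eif2ak3, with Gm43292 on the opposite strand as the largest overlap. The library kit's strand setting is not given, so reads of these genes cannot be separated.

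Atf6 did not pass the test in DPP4_pos APCs and fell in DPP4_neg APCs. Its normalized counts were 1366, 1321, 1358 and 1314 in DPP4_pos isoproterenol and 1326, 1283, 1308 and 1277 in DPP4_pos vehicle libraries, which overlap. They were 1024, 987.5, 1025 and 1145 in DPP4_neg isoproterenol and 1533, 1530, 1466 and 1410 in DPP4_neg vehicle libraries, which do not. The log2 difference was 0.045 ± 0.043 (adjusted p = 0.333) in DPP4_pos APCs, where quantile and total-count scaling gave a negative, called value, and -0.51 ± 0.043 (adjusted p = 7.09e-10) in DPP4_neg APCs. The responses differed by 0.55 ± 0.060 (adjusted p = 6.78e-08), and that call held under the scalings tried.

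Xbp1, the transcription factor downstream of IRE1, rose in both populations. Its normalized counts were 3559, 3735, 3509 and 3612 in DPP4_pos isoproterenol and 2667, 2891, 2763 and 2766 in DPP4_pos vehicle libraries. They were 4111, 4410, 4179 and 4140 in DPP4_neg isoproterenol and 3248, 3346, 3259 and 3149 in DPP4_neg vehicle libraries. Each isoproterenol library was above each vehicle library of its population, and DPP4_pos libraries were below DPP4_neg libraries under each treatment. The log2 difference was 0.38 ± 0.034 (adjusted p = 1.02e-09) in DPP4_pos APCs, not called with quantile scaling, and 0.37 ± 0.034 (adjusted p = 2.91e-09) in DPP4_neg APCs. The difference of the responses was 0.006 ± 0.048 (adjusted p = 0.923), and quantile and total-count scaling turned it negative and called.

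Of the 10 chaperones, cochaperones and secreted stress proteins, 8 rose and 1 (Sil1) fell in each population, and Dnajc3 did not pass in either. Their median log2 difference was 1.11 in DPP4_pos and 0.63 in DPP4_neg APCs with the deposited scaling. Hspa5, which encodes BiP, the HSP70 chaperone of the ER, had 41111, 42756, 44889 and 41856 normalized counts in DPP4_pos isoproterenol libraries, against 14565, 14293, 14464 and 13966 in DPP4_pos vehicle libraries. It had 38565, 41106, 40389 and 37961 in DPP4_neg isoproterenol and 19579, 20083, 19729 and 20595 in DPP4_neg vehicle libraries. The treated and vehicle libraries were far apart in both populations. Vehicle libraries of DPP4_pos APCs were below those of DPP4_neg APCs, and with isoproterenol the order was the other way, with almost no gap between the lowest DPP4_pos and the highest DPP4_neg library. Hspa5 rose by 1.57 ± 0.036 (adjusted p = 3.85e-20) on the log2 scale in DPP4_pos APCs, a fold of 2.98, and by 0.98 ± 0.036 (adjusted p = 3.67e-16) in DPP4_neg APCs, a fold of 1.97. The difference of the responses was 0.59 ± 0.051 (adjusted p = 1.85e-09). DPP4_pos APCs were lower under vehicle (-0.48 ± 0.036) and higher under isoproterenol (0.11 ± 0.036), and this last sign turned under quantile and total-count scaling.

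Hyou1, which encodes GRP170, a nucleotide exchange factor of BiP, rose in both populations. It had 6838, 7112, 7415 and 7088 normalized counts in DPP4_pos isoproterenol and 2471, 2294, 2401 and 2444 in DPP4_pos vehicle libraries. In DPP4_neg isoproterenol libraries it had 7398, 7386, 7521 and 7631, against 3660, 3629, 3631 and 3947 in DPP4_neg vehicle libraries. The groups did not overlap between treatments, and the 2 isoproterenol groups overlapped each other. The rise was 1.57 ± 0.035 (adjusted p = 2.65e-20) in DPP4_pos and 1.01 ± 0.035 (adjusted p = 1.35e-16) in DPP4_neg APCs, and the responses differed by 0.56 ± 0.050 (adjusted p = 3.24e-09). Under isoproterenol the populations differed by -0.074 ± 0.035 (adjusted p = 0.0629), which did not pass, though it did without DPP4_pos isoproterenol replicate 3 (adjusted p = 0.02836, limma) and without DPP4_neg vehicle replicate 4 (adjusted p = 0.04407, limma).

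Hsp90b1 encodes GRP94, the HSP90 chaperone of the ER. Its normalized counts were 35650, 36611, 37882 and 37248 in DPP4_pos isoproterenol and 22792, 22297, 23293 and 22629 in DPP4_pos vehicle libraries. In DPP4_neg APCs they were 39024, 40408, 41309 and 38775 with isoproterenol and 26656, 26158, 26031 and 27840 with vehicle. Treated libraries were above vehicle libraries in both populations, without overlap. The log2 rise was 0.70 ± 0.035 (adjusted p = 3.46e-14) in DPP4_pos and 0.58 ± 0.035 (adjusted p = 2.06e-12) in DPP4_neg APCs. The difference of the responses, 0.12 ± 0.049 (adjusted p = 0.0467), turned negative and called under quantile and total-count scaling, and it was lost when any of 10 single libraries was left out. Exons of other genes lie over 15.7% of the exon bases of Hsp90b1, with the pseudogene 1810014B01Rik on the opposite strand as the largest overlap. Part of its reads thus cannot be assigned with certainty.

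Sdf2l1, a partner of BiP and its J-domain cochaperone ERdj3, had the largest rise of the set in DPP4_pos APCs. It had 970.8, 1096, 1175 and 979.0 normalized counts in DPP4_pos isoproterenol libraries, against 315.5, 298.7, 315.3 and 337.9 in DPP4_pos vehicle libraries. It had 1191, 1432, 1371 and 1223 in DPP4_neg isoproterenol libraries, against 494.1, 505.3, 542.7 and 623.2 in DPP4_neg vehicle libraries. The lowest treated library stood well above the highest vehicle library in each population, and DPP4_pos libraries stood below DPP4_neg libraries under each treatment. It rose by 1.73 ± 0.075 (adjusted p = 3.08e-15), a fold of 3.32, in DPP4_pos APCs and by 1.27 ± 0.075 (adjusted p = 1.8e-12), a fold of 2.41, in DPP4_neg APCs. The difference of the responses, 0.46 ± 0.11 (adjusted p = 0.000762), was no longer called with total-count scaling.

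Dnajb9, which encodes the J-domain cochaperone ERdj4, had overlapping levels under vehicle. Its normalized counts were 2080, 2284, 2274 and 1966 in DPP4_pos isoproterenol and 762.7, 779.6, 772.3 and 800.1 in DPP4_pos vehicle libraries. They were 1275, 1168, 1085 and 1137 in DPP4_neg isoproterenol and 750.3, 801.3, 789.1 and 774.7 in DPP4_neg vehicle libraries. The 2 vehicle groups overlapped, and with isoproterenol every DPP4_pos library was above every DPP4_neg library. The vehicle difference between populations was -0.0002 ± 0.051 (adjusted p = 0.998), and the isoproterenol difference was 0.88 ± 0.051 (adjusted p = 9.01e-13). The responses were 1.46 ± 0.051 (adjusted p = 5.74e-17) in DPP4_pos and 0.58 ± 0.051 (adjusted p = 1.48e-09) in DPP4_neg APCs, and differed by 0.88 ± 0.072 (adjusted p = 7.73e-10).

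Manf and Creld2 encode small proteins that are secreted under ER stress. Manf had 4374, 4758, 4681 and 4294 normalized counts in DPP4_pos isoproterenol and 2011, 1962, 2002 and 1977 in DPP4_pos vehicle libraries. It had 4987, 5774, 5160 and 5157 in DPP4_neg isoproterenol and 3242, 3293, 3213 and 3480 in DPP4_neg vehicle libraries. The treated libraries were higher in both populations, and the DPP4_pos vehicle libraries were the lowest of the 4 groups. The response was 1.19 ± 0.043 (adjusted p = 1.21e-16) in DPP4_pos and 0.67 ± 0.043 (adjusted p = 7.03e-12) in DPP4_neg APCs, a difference of 0.52 ± 0.061 (adjusted p = 2.19e-07). Exons of other genes, with the antisense transcript 4930524O07Rik as the largest overlap, cover 9.25% of the exon bases of Manf. Creld2 had 1269, 1343, 1425 and 1387 normalized counts in DPP4_pos isoproterenol and 664.1, 640.6, 627.9 and 694.5 in DPP4_pos vehicle libraries, and 1754, 2021, 1956 and 1777 in DPP4_neg isoproterenol and 815.1, 908.4, 840.1 and 948.6 in DPP4_neg vehicle libraries. Treated and vehicle libraries did not overlap in either population, and DPP4_pos libraries were lower under each treatment. It rose by 1.04 ± 0.055 (adjusted p = 9.97e-14) in DPP4_pos and 1.10 ± 0.055 (adjusted p = 1.07e-13) in DPP4_neg APCs, and the difference of the responses, -0.051 ± 0.078 (adjusted p = 0.589), did not pass.

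Of the other cochaperones, Dnajb11, which encodes ERdj3, rose by 0.65 ± 0.037 (adjusted p = 3.38e-13) in DPP4_pos and 0.56 ± 0.037 (adjusted p = 1.09e-11) in DPP4_neg APCs. Dnajc3, which encodes the BiP cochaperone p58IPK, had 3977 to 4305 normalized counts over all 16 libraries. Its log2 differences were 0.035 ± 0.030 (adjusted p = 0.283) in DPP4_pos and 0.014 ± 0.030 (adjusted p = 0.698) in DPP4_neg APCs, and both became negative and called with quantile scaling, the first also with total-count scaling. Sil1, another nucleotide exchange factor of BiP, fell in both, by a log2 difference of -0.21 ± 0.065 (adjusted p = 0.00527) in DPP4_pos and -0.20 ± 0.065 (adjusted p = 0.0101) in DPP4_neg APCs. Exons of other genes, with an antisense gene as the largest overlap, cover 5.7% of its exon bases.

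Both lectin chaperones, which hold glycoproteins during folding, rose. Calr, which encodes calreticulin, had 23616, 23980, 24129 and 24384 normalized counts in DPP4_pos isoproterenol and 14835, 14337, 15023 and 15077 in DPP4_pos vehicle libraries. It had 24929, 26457, 23902 and 24519 in DPP4_neg isoproterenol and 16086, 16691, 16355 and 16997 in DPP4_neg vehicle libraries. The treated groups overlapped each other and both lay above the vehicle groups. The rises were 0.70 ± 0.034 (adjusted p = 2.54e-14) in DPP4_pos and 0.59 ± 0.034 (adjusted p = 1.1e-12) in DPP4_neg APCs, and their difference, 0.10 ± 0.048 (adjusted p = 0.0661), did not pass and turned negative and called with quantile and total-count scaling. Canx, which encodes calnexin, rose by 0.64 ± 0.033 (adjusted p = 7.06e-14) in DPP4_pos and 0.28 ± 0.033 (adjusted p = 1.87e-07) in DPP4_neg APCs, and the difference of the responses, 0.36 ± 0.047 (adjusted p = 8.76e-07), turned negative with quantile scaling.

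The foldases form and rearrange disulfide bonds or isomerize prolines. Of 6 members, 5 rose and 1 fell in DPP4_pos APCs, and 4 rose and 2 fell in DPP4_neg APCs. Pdia4, a disulfide isomerase, had 6020, 6157, 6206 and 6103 normalized counts in DPP4_pos isoproterenol and 5278, 5278, 5526 and 5309 in DPP4_pos vehicle libraries. It had 7616, 7527, 7926 and 7605 in DPP4_neg isoproterenol and 6289, 6495, 6392 and 6649 in DPP4_neg vehicle libraries. The treated libraries were above their vehicle libraries by small margins, and all DPP4_pos libraries were below all DPP4_neg libraries. It rose by 0.20 ± 0.030 (adjusted p = 3.14e-06) in DPP4_pos APCs, where quantile and total-count scaling turned the sign, and by 0.25 ± 0.030 (adjusted p = 1.89e-07) in DPP4_neg APCs. The 3 other isomerases, Pdia3, Pdia6 and P4hb, the last also a subunit of collagen prolyl hydroxylase, rose by 0.33 to 0.50 in DPP4_pos APCs and by 0.37 to 0.44 in DPP4_neg APCs on the log2 scale, with Pdia6 and P4hb turning negative in DPP4_pos APCs under quantile scaling.

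Ero1l, the oxidase that keeps disulfide isomerases oxidized, was the member whose direction differed between the populations. It had 1209, 1150, 1271 and 1225 normalized counts in DPP4_pos isoproterenol libraries, against 665.0, 649.5, 636.8 and 615.9 in DPP4_pos vehicle libraries. It had 1038, 1018, 1057 and 1059 in DPP4_neg isoproterenol libraries, against 1081, 1159, 1154 and 1083 in DPP4_neg vehicle libraries. The DPP4_pos vehicle libraries were far below the other 12, and the DPP4_neg isoproterenol libraries lay just under their vehicle libraries. The log2 difference was 0.92 ± 0.041 (adjusted p = 4.43e-15) in DPP4_pos and -0.10 ± 0.041 (adjusted p = 0.0342) in DPP4_neg APCs. The fall in DPP4_neg APCs was no longer called without DPP4_neg isoproterenol replicate 1 or 2 or DPP4_neg vehicle replicate 2 or 3 (adjusted p from 0.05941 to 0.1049, limma), nor in a fit of the DPP4_neg libraries alone. The responses differed by 1.02 ± 0.058 (adjusted p = 2.16e-12), and this call held under the scalings tried.

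Fkbp14, a prolyl isomerase that acts on collagens, fell in both populations. It had 871.9, 980.9, 835.9 and 924.5 normalized counts in DPP4_pos isoproterenol and 1901, 1843, 1860 and 1891 in DPP4_pos vehicle libraries. It had 1623, 1602, 1592 and 1494 in DPP4_neg isoproterenol and 1733, 1724, 1693 and 1675 in DPP4_neg vehicle libraries. The DPP4_pos isoproterenol libraries were the lowest of all, with a wide gap to the others. The log2 difference was -1.05 ± 0.043 (adjusted p = 8.26e-16) in DPP4_pos and -0.11 ± 0.043 (adjusted p = 0.0233) in DPP4_neg APCs, a difference of -0.94 ± 0.060 (adjusted p = 1.57e-11). The smaller fall was no longer called without DPP4_neg isoproterenol replicate 4 or without DPP4_neg vehicle replicate 1 or 2 (adjusted p from 0.05187 to 0.09152, limma). Exons of other genes, with Plekha8 on the opposite strand as the largest overlap, cover 5.01% of its exon bases.

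The ERAD members split. Of 7, 4 (Edem1, Sel1l, Syvn1 and Derl1) rose in each population, Derl2 and Herpud1 fell in DPP4_pos APCs, and Derl2 and Derl3 fell in DPP4_neg APCs. Syvn1 encodes the ubiquitin ligase HRD1 and Sel1l its partner, Edem1 directs misfolded glycoproteins to them, and derlins belong to the same membrane complex. Syvn1 rose by 0.91 ± 0.040 (adjusted p = 2.97e-15) in DPP4_pos and 0.84 ± 0.040 (adjusted p = 3.03e-14) in DPP4_neg APCs, and Sel1l by 0.52 ± 0.037 (adjusted p = 2.02e-11) in DPP4_pos and 0.37 ± 0.037 (adjusted p = 1.28e-08) in DPP4_neg APCs. Edem1 rose by 0.66 ± 0.041 (adjusted p = 2.03e-12) in DPP4_pos and 0.49 ± 0.041 (adjusted p = 7.45e-10) in DPP4_neg APCs. The larger responses of Edem1 and Sel1l in DPP4_pos APCs (0.17 ± 0.058 and 0.15 ± 0.053) turned negative with quantile and total-count scaling. Derl1 rose by 0.21 ± 0.045 (adjusted p = 0.000217) in DPP4_pos APCs, where the sign turned under total-count scaling, and by 0.27 ± 0.045 (adjusted p = 2.16e-05) in DPP4_neg APCs. Derl2 fell by a log2 difference of -0.20 ± 0.043 (adjusted p = 0.000272) in DPP4_pos and -0.15 ± 0.043 (adjusted p = 0.00513) in DPP4_neg APCs.

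Herpud1 encodes a membrane protein that recruits the ligase complex and is itself a known target of the unfolded protein response. It had 749.4, 719.5, 694.1 and 706.6 normalized counts in DPP4_pos isoproterenol libraries, against 912.4, 987.6, 946.8 and 916.6 in DPP4_pos vehicle libraries. It had 1454, 1482, 1297 and 1353 in DPP4_neg isoproterenol libraries, against 1447, 1352, 1379 and 1399 in DPP4_neg vehicle libraries. All DPP4_pos isoproterenol libraries were below the DPP4_pos vehicle libraries, and in DPP4_neg APCs the 2 groups overlapped. Herpud1 fell by a log2 difference of -0.39 ± 0.045 (adjusted p = 5.1e-08) in DPP4_pos APCs and did not pass in DPP4_neg APCs, at 0.0006 ± 0.045 (adjusted p = 0.991), and the responses differed by -0.39 ± 0.063 (adjusted p = 1.55e-05). DPP4_pos APCs were lower under isoproterenol (-0.96 ± 0.045) and under vehicle (-0.57 ± 0.045). These calls held under the scalings tried.

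Derl3 was the least abundant member and its values rest on few reads. It had 8.99, 12.2, 11.7 and 11.3 normalized counts in DPP4_pos isoproterenol and 10.8, 16.3, 7.97 and 17.7 in DPP4_pos vehicle libraries. It had 10.5, 16.2, 11 and 13.1 in DPP4_neg isoproterenol and 47.3, 41.9, 40.9 and 33.8 in DPP4_neg vehicle libraries. The DPP4_neg vehicle libraries were above the other 12, which overlapped each other. The log2 difference was -0.18 ± 0.24 (adjusted p = 0.487) in DPP4_pos APCs and -1.62 ± 0.24 (adjusted p = 4.96e-06) in DPP4_neg APCs, and the responses differed by 1.44 ± 0.34 (adjusted p = 0.00106).

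The 4 translocon members, which carry nascent chains into the ER, all rose in both populations, with a median of 0.64 in DPP4_pos and 0.27 in DPP4_neg APCs. Serp1, which encodes RAMP4, a small protein of the translocon, had 4958, 5035, 4957 and 4876 normalized counts in DPP4_pos isoproterenol and 2792, 2753, 2921 and 2809 in DPP4_pos vehicle libraries. It had 5410, 5235, 5194 and 5156 in DPP4_neg isoproterenol and 4712, 4735, 4442 and 4550 in DPP4_neg vehicle libraries. The DPP4_pos vehicle libraries were well below the rest. The rise was 0.81 ± 0.031 (adjusted p = 2.67e-16) in DPP4_pos and 0.19 ± 0.031 (adjusted p = 1.61e-05) in DPP4_neg APCs, a difference of 0.63 ± 0.044 (adjusted p = 5.93e-11) that was called under the scalings tried. Ssr1, a subunit of the translocon-associated TRAP complex, rose by 0.72 ± 0.032 (adjusted p = 6.14e-15) in DPP4_pos and 0.35 ± 0.032 (adjusted p = 3.24e-09) in DPP4_neg APCs. Sec61a1, the channel itself, rose by 0.57 ± 0.028 (adjusted p = 3.29e-14) in DPP4_pos and 0.23 ± 0.028 (adjusted p = 2.47e-07) in DPP4_neg APCs, and the difference of its responses (0.33 ± 0.040) turned negative with quantile scaling. Exons of other genes, with the antisense gene Gm44170 as the largest overlap, cover 8.16% of the exon bases of Sec61a1.

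Sec61b, a small subunit of the channel, had 956.2, 1009, 903.1 and 915.1 normalized counts in DPP4_pos isoproterenol and 776.1, 743.9, 759.0 and 841.5 in DPP4_pos vehicle libraries. It had 1295, 1422, 1434 and 1404 in DPP4_neg isoproterenol and 1109, 1104, 1116 and 1173 in DPP4_neg vehicle libraries. All DPP4_pos libraries were below all DPP4_neg libraries. It rose by 0.28 ± 0.047 (adjusted p = 1.33e-05) in DPP4_pos APCs, not called with total-count scaling, and by 0.30 ± 0.047 (adjusted p = 7.7e-06) in DPP4_neg APCs. Its transcript matches that of Gm10320 at 98.3% identity over 84.0% of its length, so its values are uncertain.

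**Figure D5:**
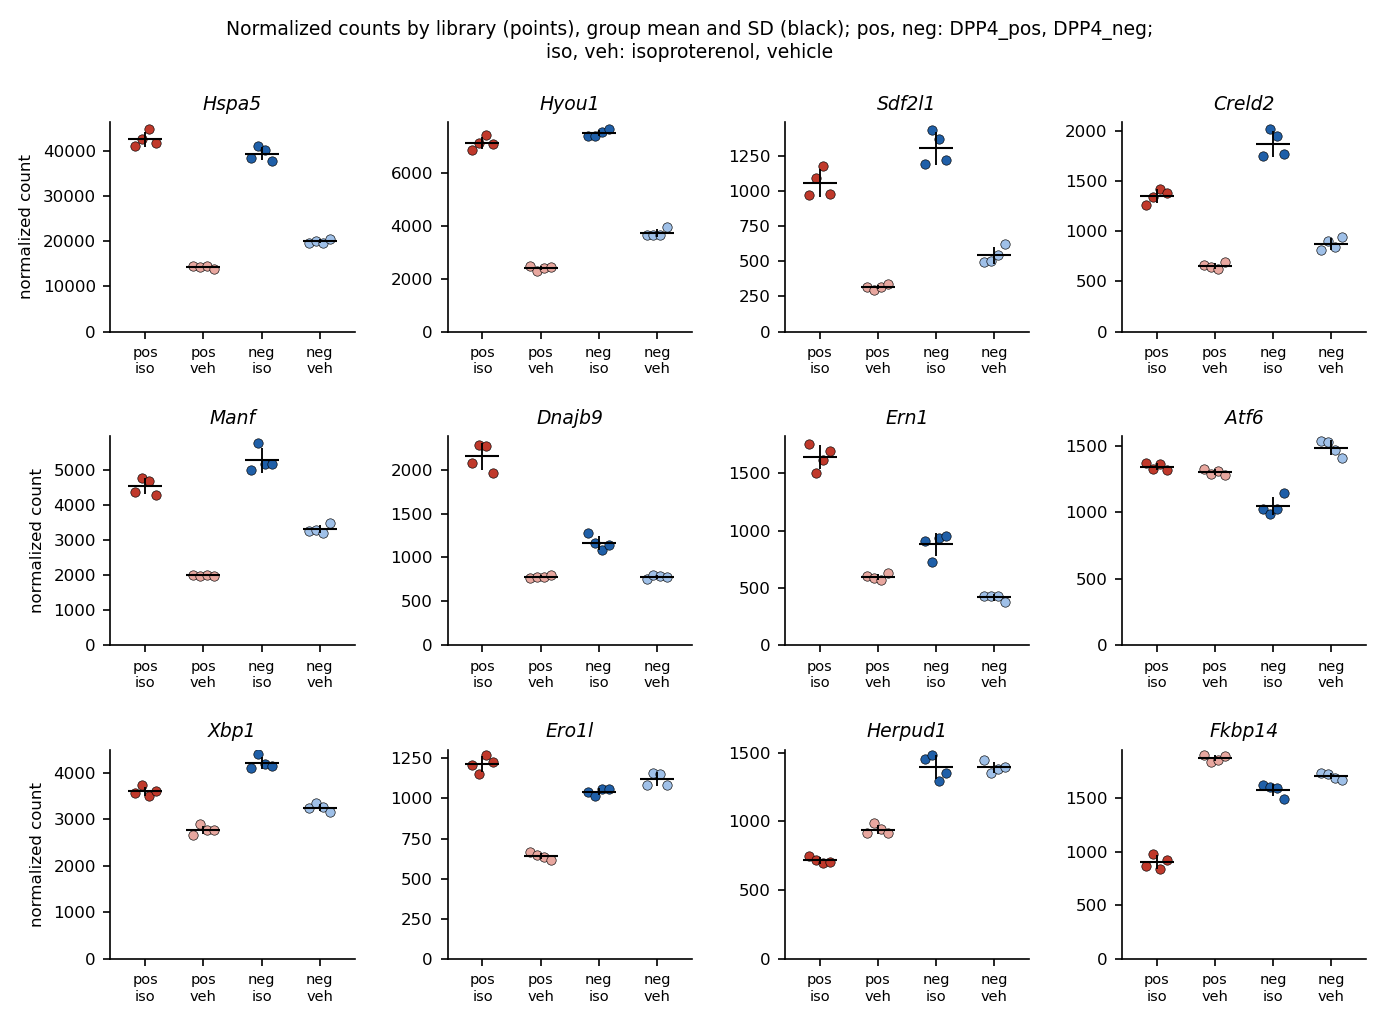
Normalized counts of 12 members by library, with the group mean and SD in black, 4 libraries in each group; vertical axes start at 0. Hspa5, Hyou1, Sdf2l1, Creld2 and Manf are higher with isoproterenol in both populations, Ero1l is higher with isoproterenol in DPP4_pos APCs, and Herpud1 and Fkbp14 are lowest in DPP4_pos isoproterenol libraries.

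A further 102 genes of the pathway, in 7 lists compiled by function, were all tested. After isoproterenol 67 rose and 21 fell in DPP4_pos APCs, which is 65.7% and 20.6% of the list beside 39.4% and 43.3% of all genes. This balance turned with the scaling: 42 rose and 44 fell with quantile and 38 rose and 46 fell with total-count scaling. Of all 14005 genes, 5358 rose and 5767 fell with quantile and 3865 rose and 7836 fell with total-count scaling. With total-count scaling 37.3% of the list rose and 45.1% fell. It thus still held the larger share of rises and the smaller share of falls than all genes. In DPP4_neg APCs 62 rose and 14 fell, which is 60.8% and 13.7% beside 32.1% and 33.6% of all genes. There 44 rose and 21 fell with quantile scaling, beside 4789 and 4352 of all 14005 genes. Under isoproterenol 41 were higher and 44 lower in DPP4_pos than in DPP4_neg APCs, 40.2% and 43.1% of the list and so near the 37.4% and 37.0% of all genes. With quantile scaling 18 were higher and 58 lower, beside 4733 and 5419 of all genes. With total-count scaling these were 21 and 61, beside 3665 and 7004 of all genes. Under vehicle 16 were higher and 64 lower, 15.7% and 62.7% of the list beside 31.6% and 35.0% of all genes. By list, glycan processing and quality control had 11 of 12 genes higher with isoproterenol in each population, which in DPP4_pos APCs became 4 higher and 6 lower with quantile and 5 higher and 3 lower with total-count scaling. In DPP4_neg APCs it became 7 higher and 1 lower with quantile and 11 higher and 1 lower with total-count scaling. The other ERAD genes had 12 of 17 higher (70.6%) in DPP4_pos and 11 of 17 (64.7%) in DPP4_neg APCs, and 12 and 9 with quantile and 11 and 10 with total-count scaling. The other foldases and collagen chaperones had 7 of 17 higher (41.2%, near the 39.4% of all genes) and 4 lower in DPP4_pos APCs, which became 3 and 11 with quantile and 1 and 12 with total-count scaling. In DPP4_neg APCs 12 of the 17 were higher (70.6%, beside 32.1% of all genes) and 1 was lower. These became 7 (41.2%) and 1 with quantile and 9 (52.9%) and 1 with total-count scaling.

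In the list of the PERK and ATF4 arm, 8 of 10 genes rose and 2 fell in DPP4_pos APCs, with a median of 1.10, beside 39.4% and 43.3% of all genes. In DPP4_neg APCs 5 rose and 5 fell, with a median of 0.06, beside 32.1% and 33.6% of all genes. The DPP4_pos count was 8 and 1 with quantile and 7 and 2 with total-count scaling. Of the falls there, that of Chac1 at -0.34 ± 0.14 (adjusted p = 0.0327), had the other sign (0.15) with quantile scaling. It was no longer called with edgeR, DESeq2, no filter or the DPP4_pos libraries alone, nor without DPP4_pos isoproterenol replicate 3 or 4 or DPP4_pos vehicle replicate 1 or 4 (adjusted p from 0.05338 to 0.1204, limma). Atf4, the transcription factor of this arm, averaged 3738 ± 30.9 normalized counts in DPP4_pos isoproterenol and 1431 ± 34 in DPP4_pos vehicle libraries, and 2789 ± 120 in DPP4_neg isoproterenol and 2256 ± 59.1 in DPP4_neg vehicle libraries (SD, n = 4). Its log2 difference was 1.38 ± 0.034 (adjusted p = 1.43e-19) in DPP4_pos and 0.31 ± 0.034 (adjusted p = 7.58e-08) in DPP4_neg APCs. Ddit3, which encodes CHOP, a factor linked to cell death under lasting ER stress, averaged 225.0 ± 23 in DPP4_pos isoproterenol and 332.5 ± 32.3 in DPP4_pos vehicle libraries, and 369.6 ± 17.4 in DPP4_neg isoproterenol and 422.7 ± 18.8 in DPP4_neg vehicle libraries. It fell in both, by a log2 difference of -0.56 ± 0.075 (adjusted p = 5.63e-07) in DPP4_pos and -0.19 ± 0.075 (adjusted p = 0.0292) in DPP4_neg APCs, the second no longer called without any of 4 single libraries (adjusted p from 0.06204 to 0.07996, limma). Ppp1r15a, the phosphatase subunit that reverses PERK's action, rose by 0.57 ± 0.046 (adjusted p = 1.74e-10) in DPP4_pos and 0.31 ± 0.046 (adjusted p = 4.26e-06) in DPP4_neg APCs.

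Trib3 and Asns, targets of ATF4, moved in opposite directions in the 2 populations. Trib3 averaged 210.2 ± 26.5 normalized counts in DPP4_pos isoproterenol and 89.7 ± 11.6 in DPP4_pos vehicle libraries, and 296.1 ± 13 in DPP4_neg isoproterenol and 397.3 ± 14.5 in DPP4_neg vehicle libraries. It rose by 1.22 ± 0.094 (adjusted p = 7.33e-11) in DPP4_pos APCs and fell by a log2 difference of -0.42 ± 0.094 (adjusted p = 0.000455) in DPP4_neg APCs, and the responses differed by 1.64 ± 0.13 (adjusted p = 6.7e-10). Asns averaged 2906 ± 167 in DPP4_pos isoproterenol and 1186 ± 30.1 in DPP4_pos vehicle libraries, and 2264 ± 46 in DPP4_neg isoproterenol and 2690 ± 32.5 in DPP4_neg vehicle libraries. It rose by 1.29 ± 0.037 (adjusted p = 2.02e-18) in DPP4_pos APCs and fell by a log2 difference of -0.25 ± 0.037 (adjusted p = 4.75e-06) in DPP4_neg APCs, and the responses differed by 1.54 ± 0.053 (adjusted p = 7e-16). Chac1, also a target of ATF4, averaged 25.5 ± 3.98 in DPP4_pos isoproterenol and 32.6 ± 4.62 in DPP4_pos vehicle libraries, against 92.6 ± 16.1 in DPP4_neg isoproterenol and 253.7 ± 9.5 in DPP4_neg vehicle libraries, and was lower in DPP4_pos APCs under vehicle by a log2 difference of -2.93 ± 0.14 (adjusted p = 6.08e-14). Its response differed by 1.12 ± 0.20 (adjusted p = 6.38e-05).

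The largest changes of the 102 genes after isoproterenol were those of Atf3 and Cebpb, transcription factors that other signals also induce. Atf3 rose by 2.75 ± 0.12 (adjusted p = 3.99e-15) in DPP4_pos and 2.39 ± 0.12 (adjusted p = 1.23e-13) in DPP4_neg APCs, and Cebpb by 2.22 ± 0.033 (adjusted p = 2.25e-23) in DPP4_pos and 1.53 ± 0.033 (adjusted p = 2.83e-20) in DPP4_neg APCs. Stc2, a secreted glycoprotein, fell by a log2 difference of -1.51 ± 0.12 (adjusted p = 9.51e-11) in DPP4_pos APCs. Between populations under isoproterenol, Creb3l1, an ER-resident factor related to ATF6, and Qsox1, a sulfhydryl oxidase, were lower in DPP4_pos APCs, with log2 differences of -1.51 ± 0.051 (adjusted p = 8.4e-17) and -1.44 ± 0.034 (adjusted p = 1.64e-19).

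Markers of other cells were summed over fixed lists beside these values. Of 6 plasma cell markers, chosen because plasma cells are rich in these chaperones, the sum was 3491 to 4283 normalized counts in DPP4_pos isoproterenol and 1102 to 1177 in DPP4_pos vehicle libraries, and 10850 to 11432 in DPP4_neg isoproterenol and 1444 to 1631 in DPP4_neg vehicle libraries. Sdc1, which stromal cells also express, gave nearly all of it, at 3490 to 4283 and 1099 to 1172 in DPP4_pos isoproterenol and vehicle libraries, and at 10846 to 11432 and 1443 to 1631 in DPP4_neg isoproterenol and vehicle libraries. Jchain reached at most 5.23 normalized counts in any library, and Pou2af1 was at 0 in all 16. The 9 mural markers summed to 5119 to 6122 in DPP4_pos isoproterenol and 7938 to 9032 in DPP4_pos vehicle libraries, and to 75056 to 81561 in DPP4_neg isoproterenol and 108778 to 120051 in DPP4_neg vehicle libraries, mostly Acta2. Kcnj8 was higher with isoproterenol, averaging 150.9 against 16.9 with vehicle in DPP4_pos and 87.2 against 12.3 in DPP4_neg libraries. Abcc9 and Rgs5 were higher with isoproterenol in DPP4_pos libraries and overlapped between treatments in DPP4_neg libraries. Means of Notch3, Cspg4, Mcam, Myh11, Cnn1 and Acta2 were lower with isoproterenol in both populations. The 11 macrophage and leukocyte markers summed to 493.9 to 1193 in DPP4_pos isoproterenol and 487.1 to 910.6 in DPP4_pos vehicle libraries, and to 694.8 to 1628 in DPP4_neg isoproterenol and 377.5 to 889.8 in DPP4_neg vehicle libraries. Of these only Csf1r did not overlap between treatments, at 566.1 to 782.4 in DPP4_neg isoproterenol and 163.6 to 207.1 in DPP4_neg vehicle libraries. It had 230.9 to 291.3 in DPP4_pos isoproterenol and 130.8 to 181.9 in DPP4_pos vehicle libraries. The others, Ptprc and Lyz2 among them, overlapped between treatments in both populations. The 5 adipocyte markers summed to 1293 to 1394 in DPP4_pos isoproterenol and 4746 to 5235 in DPP4_pos vehicle libraries, and to 3474 to 4090 in DPP4_neg isoproterenol and 11091 to 12351 in DPP4_neg vehicle libraries, with Lep at 0 in all isoproterenol libraries. The 8 interferon response genes summed to 2374 to 5172 in DPP4_pos isoproterenol and 4778 to 15040 in DPP4_pos vehicle libraries, and to 581.4 to 1835 in DPP4_neg isoproterenol and 654.2 to 746.5 in DPP4_neg vehicle libraries. The 7 endothelial markers summed to 1169 to 1298 in DPP4_pos isoproterenol and 1108 to 1163 in DPP4_pos vehicle libraries, and to 170.6 to 218.0 in DPP4_neg isoproterenol and 163.9 to 199.6 in DPP4_neg vehicle libraries. These endothelial sums hold opposite differences: Kdr averaged 683.9 in DPP4_pos isoproterenol and 39.9 in DPP4_pos vehicle libraries, and 121.5 in DPP4_neg isoproterenol and 13.7 in DPP4_neg vehicle libraries, and Tek averaged 410.2 in DPP4_pos isoproterenol and 1013 in DPP4_pos vehicle libraries, and 35.3 in DPP4_neg isoproterenol and 140.3 in DPP4_neg vehicle libraries. The 10 progenitor markers, matrix genes among them, summed to 401843 to 421475 in DPP4_pos isoproterenol and 514240 to 522988 in DPP4_pos vehicle libraries, and to 298788 to 337825 in DPP4_neg isoproterenol and 312272 to 322044 in DPP4_neg vehicle libraries. Single markers of this list went different ways. Pdgfra averaged 10639 in DPP4_pos isoproterenol and 33546 in DPP4_pos vehicle libraries, and 10597 in DPP4_neg isoproterenol and 13351 in DPP4_neg vehicle libraries. Pi16 was higher with isoproterenol, averaging 21761 in DPP4_pos isoproterenol and 517.5 in DPP4_pos vehicle libraries. In DPP4_neg libraries Pi16 averaged 1099 with isoproterenol and 8.37 with vehicle. Dcn overlapped between treatments in both populations. The 5 mesothelial markers summed to 124.0 to 189.9 in DPP4_pos isoproterenol and 118.3 to 172.1 in DPP4_pos vehicle libraries, and to 1227 to 1717 in DPP4_neg isoproterenol and 623.1 to 782.9 in DPP4_neg vehicle libraries. Most of it was Krt19, with 1220 to 1711 in DPP4_neg isoproterenol and 616.3 to 768.7 in DPP4_neg vehicle libraries. Msln reached at most 0.974 in any library, and Wt1 was highest in DPP4_pos vehicle libraries (28.7 to 36.7). The 4 epithelial markers summed to at most 105.3 and the 4 Schwann cell markers to at most 95.4 in any library. The part of these differences in the members' values was not tested.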

How the data were processed

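RNA was measured by sequencing in 16 libraries of 4 groups, from 500 ng of total RNA each, per the labels' protocols. Tools listed in the submitters' processing notes were featureCounts 1.4.6, HISAT2 2.0.1, DESeq2 1.6.3 and Trim Galore 0.4.1, with GRCm38/mm10 as the build. The sources used here do not state how or in what order they were run, nor the annotation. The authors deposited normalized counts per gene, a signal in reads divided by a factor per library. Whole reads were recovered for 100.00% of 280334 values above 0, within a tolerance of 0.001, and used for edgeR and DESeq2 as alternatives. Entries without a symbol, 958 of 27179, held 0.093% of the signal, and 26 symbols had been turned into dates.

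Genes with a normalized count of at least 10 in at least 4 libraries were tested on log2(normalized count + 1) with limma 3.58.1 in R 4.3.3 (mean and variance trend, all 16 libraries in 1 fit), with Benjamini-Hochberg adjustment over 14005 genes and a threshold of 0.05. Fold changes are on this scale, which understates changes of low genes. The fit was tested on simulated data. Alternatives were pseudocounts of 0.1 and 5, no filter, TMM, quantile and total-count scaling, edgeR 4.0.16, DESeq2 1.42.0, the compared groups alone, the replicate number as a block, a 1.5-fold rule and each library left out. Groups came from the labels. The members and gene lists were chosen with earlier results of these data known. Values in every library are given for 15 members listed by name and for any other member among the 5 largest changes of a comparison; of the pathway genes, the 3 largest called changes per comparison and Ddit3, Atf4, Ppp1r15a and Trib3 are named. Exon lengths and overlaps came from GENCODE, and promoters from RefSeq.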

Additional observations from a re-analysis of the deposited data

Results flagged for a closer look

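In 5 of 132 groups of 4 libraries, 1 library lay far from the other 3 (Dixon's test at the 95% level); chance does this in about 1 in 20 groups. Canx had 15033 normalized counts in DPP4_pos isoproterenol replicate 3, where the others had 14335 to 14392. Pdia4 had 5526 in DPP4_pos vehicle replicate 3, where the others had 5278 to 5309. Dnajc3 had 4021 in DPP4_pos vehicle replicate 4, where the others had 4137 to 4146. Ern1 had 373.5 and Hyou1 3947 in DPP4_neg vehicle replicate 4, where the others had 426.7 to 433.1 and 3629 to 3660.

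The isoproterenol response differed between the populations for 18 members by the interaction in limma. As log2 differences, DPP4_pos minus DPP4_neg, these were 1.44 for Derl3, 1.02 for Ero1l, 0.88 for Dnajb9, 0.63 for Serp1, 0.59 for Hspa5, 0.56 for Hyou1, 0.55 for Atf6, 0.52 for Manf and 0.46 for Sdf2l1. Smaller ones were 0.38 for Ern1, 0.36 for Ssr1, 0.36 for Canx, 0.33 for Sec61a1, 0.17 for Edem1, 0.15 for Sel1l and 0.12 for Hsp90b1. Those below 0 were -0.94 for Fkbp14 and -0.39 for Herpud1.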

How the results depend on the processing

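Of 220 gene values, 5676 were recomputed under other settings, of which 5465 kept their sign and side of the threshold, 36 took the other sign without a call in either fit, 70 lost and 62 gained the call, and 43 took the other direction with a call in at least 1 of the fits. Pseudocounts, the filter and DESeq2 moved no count of members by over 1.5 times. With at least 1.5-fold required, members higher and lower were 16 and 1 after isoproterenol in DPP4_pos and 8 and 1 in DPP4_neg APCs, 2 and 2 between populations under isoproterenol, 0 and 6 under vehicle, and 5 and 1 for the difference of responses. With TMM and with edgeR, 5 members were lower in the difference of responses. Quantile scaling gave 8 lower in DPP4_pos APCs after isoproterenol, 4 higher and 26 lower between populations under isoproterenol, and 9 higher and 17 lower for the difference of responses. Total-count scaling, chosen after seeing the data, gave 7 lower, 4 higher, and 8 higher and 18 lower for the same. With it, all genes leaned to the lower side as well. Of 14005, 3865 were higher and 7836 lower in DPP4_pos APCs after isoproterenol. Between populations under isoproterenol these were 3665 and 7004, and for the difference of responses 2557 and 6828. The cause was not tested.

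Leaving out 1 library at a time, members higher and lower numbered 26 to 26 and 4 to 4 in DPP4_pos and 25 to 25 and 4 to 6 in DPP4_neg APCs after isoproterenol, 9 to 10 and 15 to 17 between populations under isoproterenol, 4 to 4 and 25 to 25 under vehicle, and 15 to 18 and 2 to 3 for the difference of responses. Same-numbered libraries deviated from their group means with correlations of -0.13 to 0.13 across genes. Such low values can also arise in paired samples with much library noise, so whether replicate numbers pair the samples stays undecided. A fit with the replicate block gave 26 and 4, 25 and 6, 9 and 17, 4 and 25, and 16 and 2 for these comparisons.

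With quantile scaling the other direction was seen for Dnajc3 (-0.082) in DPP4_neg APCs after isoproterenol; for Pdia4 (-0.24), Pdia6 (-0.056), P4hb (-0.11), Dnajc3 (-0.37), Atf6 (-0.19) and Chac1 (0.15) in DPP4_pos APCs; between populations under isoproterenol for Hspa5 (-0.11), Canx (-0.35), Dnajc3 (-0.20), Sel1l (-0.11) and Ssr1 (-0.080). For the difference of responses it was seen for Hsp90b1 (-0.27), Calr (-0.24), Canx (-0.21), Pdia6 (-0.47), Dnajb11 (-0.15), Dnajc3 (-0.29), Xbp1 (-0.25), Edem1 (-0.086), Sel1l (-0.19) and Sec61a1 (-0.0098). With total-count scaling it was seen in DPP4_pos APCs for Pdia4 (-0.078), Dnajc3 (-0.24), Atf6 (-0.23), Eif2ak3 (-0.070) and Derl1 (-0.065), and between populations under isoproterenol for Hspa5 (-0.086), Canx (-0.14), Dnajc3 (-0.16), Eif2ak3 (-0.027), Sel1l (-0.030) and Ssr1 (-0.0032). For the difference of responses it was seen for Hsp90b1 (-0.15), Calr (-0.16), Pdia6 (-0.20), Dnajb11 (-0.17), Dnajc3 (-0.24), Xbp1 (-0.25), Edem1 (-0.094), Sel1l (-0.11), Syvn1 (-0.19) and Ppp1r15a (-0.0019). All are log2 differences, and the cause was not tested. Depth limited Derl3, with 6 to 73 reads per library, more than any other member.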
